A study of Mus musculus with 6 samples.

Results

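The 40 genes described here are a given list of cell division genes, and all 40 were among the 20649 genes of a single-cell UMI count matrix from mouse tumors (a UMI, or unique molecular identifier, tags 1 captured transcript). They comprise 25 genes that peak in G2 phase and mitosis (G2/M), 11 genes of DNA replication that peak in S phase, the G1 cyclins Ccnd1, Ccne1 and Ccne2, and Stmn1, which encodes a regulator of microtubules. The matrix held 9235 barcodes (1 barcode is nominally 1 cell) from CT26 tumors, a BALB/c colon carcinoma line grown under the skin of BALB/c mice. Of 6 tumors, 3 had received exosomes loaded with an antisense oligonucleotide against Stat6 (exoASO-STAT6) and 3 had received exosomes with a scrambled control (exoASO-Scramble). Every tumor was injected 3 times and harvested 24 h after the final injection, and its CD45-positive (leukocyte) fraction was profiled, so no untreated tumor enters these data. The barcodes carried 6 suffixes, numbered 3 to 8, that matched no tumor label. The treatments were therefore not compared, and the tumors were treated as 1 sample with the 6 suffixes as its only visible subdivision.

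Cells enter division when cyclin D and cyclin E kinases inactivate the retinoblastoma protein and release E2F factors, which switch on the replication genes. A later wave, driven by MYBL2 with the MuvB proteins and by FOXM1, switches on the genes of chromosome condensation, spindle assembly and cytokinesis. In tumors, activated CD8 T cells and NK cells expand by division, while tumor-associated macrophages can arise from Ly6c2-positive monocytes and can also divide in place. Mature neutrophils do not divide.

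The waves differ in part in promoter letters, and a few promoters are shown for that reason. RefSeq promoters (GRCm38.p6, 250 bases before to 50 after the start) were matched for 33 of the 40 genes, giving 35 promoters. Each was searched on both strands for the CHR element (TTTGAA), the CCAAT box and the E2F site (TTTCCCGC or TTTGGCGC). Adjoining motifs can share a letter, as the CHR and a CCAAT of Cdca8 do. Among the 22 matched G2/M genes, 17 held a CHR and a CCAAT together (77.3%), against 7.97% of all 27025 genes with a promoter, and none held an E2F site. Among the 10 matched S genes, 5 held an E2F site (50%), against 1.80% of all genes, and 1 held a CHR. The CCAAT alone did not separate the groups, since 20 of the 22 G2/M genes and 9 of the 10 S genes held one. In the longer lists of other cell cycle genes used below the shares were lower: of 40 matched mitosis genes, 20 held a CHR and a CCAAT (50%) and 5 an E2F site (12.5%), and of 26 matched replication genes, 9 held an E2F site (34.6%) and 6 a CHR (23.1%). A match of letters describes a sequence and is no evidence that a factor binds there. The 4 G2/M promoters below were chosen as examples that hold both motifs, namely Top2a (topoisomerase II, which untangles chromosomes; minus strand, chr11:99024160-99024389), Cdk1 (the mitotic kinase; minus strand, chr10:69352883-69353112), Ccnb2 (cyclin B2, a partner of CDK1; minus strand, chr9:70421525-70421754) and Mki67 (Ki-67, a coat of mitotic chromosomes; minus strand, chr7:135716350-135716579). Each runs from 200 bases before to 30 after the start, and capitals mark the CHR and the CCAAT in either orientation. Birc5, which was more abundant in C1q-high macrophages than Cdk1 or Ccnb2, held neither motif in its window.
Top2a: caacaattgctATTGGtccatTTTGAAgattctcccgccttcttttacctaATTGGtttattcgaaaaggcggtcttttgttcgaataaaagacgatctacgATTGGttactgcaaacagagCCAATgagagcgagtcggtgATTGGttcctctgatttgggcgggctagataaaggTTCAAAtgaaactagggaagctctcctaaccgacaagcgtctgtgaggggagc
Cdk1: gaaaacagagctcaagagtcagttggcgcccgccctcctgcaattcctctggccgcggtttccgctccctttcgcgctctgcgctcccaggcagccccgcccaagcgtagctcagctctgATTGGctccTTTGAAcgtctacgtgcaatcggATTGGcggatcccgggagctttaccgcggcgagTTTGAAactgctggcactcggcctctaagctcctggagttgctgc
Ccnb2: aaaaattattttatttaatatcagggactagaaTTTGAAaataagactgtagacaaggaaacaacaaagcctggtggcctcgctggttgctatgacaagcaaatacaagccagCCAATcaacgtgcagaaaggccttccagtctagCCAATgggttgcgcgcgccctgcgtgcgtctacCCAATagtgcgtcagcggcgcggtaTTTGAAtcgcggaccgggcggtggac
Mki67: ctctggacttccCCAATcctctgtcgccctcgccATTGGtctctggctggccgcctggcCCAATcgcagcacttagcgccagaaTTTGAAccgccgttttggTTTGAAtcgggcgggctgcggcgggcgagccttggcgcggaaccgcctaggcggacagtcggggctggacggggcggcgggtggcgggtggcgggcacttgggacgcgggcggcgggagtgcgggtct

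The S genes shown for contrast, chosen because each holds an E2F site, are Mcm5 (plus strand, chr8:75109309-75109538) and Mcm6 (minus strand, chr1:128359676-128359905), both subunits of the replicative helicase, and Pclaf (a PCNA-binding protein; plus strand, chr9:65890123-65890352). Capitals mark the E2F site and the CCAAT in either orientation.
Mcm5: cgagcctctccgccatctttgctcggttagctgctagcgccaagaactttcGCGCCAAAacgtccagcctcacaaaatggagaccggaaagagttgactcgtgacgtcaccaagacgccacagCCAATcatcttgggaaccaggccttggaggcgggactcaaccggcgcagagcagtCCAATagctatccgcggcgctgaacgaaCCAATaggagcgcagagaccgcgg
Mcm6: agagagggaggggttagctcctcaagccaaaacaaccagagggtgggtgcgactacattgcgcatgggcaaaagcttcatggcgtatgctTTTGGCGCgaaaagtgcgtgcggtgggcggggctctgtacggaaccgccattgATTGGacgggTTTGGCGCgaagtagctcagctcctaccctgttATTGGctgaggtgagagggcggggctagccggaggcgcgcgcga
Pclaf: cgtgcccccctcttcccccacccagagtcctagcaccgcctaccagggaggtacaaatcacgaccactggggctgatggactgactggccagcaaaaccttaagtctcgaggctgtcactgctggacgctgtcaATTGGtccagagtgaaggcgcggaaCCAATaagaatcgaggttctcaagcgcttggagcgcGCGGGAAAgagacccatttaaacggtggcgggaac

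Barcodes were assigned to cell classes by a few genes. Macrophages (4117 barcodes) had 3 or more UMIs of Csf1r and Adgre1, the receptor of CSF1 and F4/80. They had no Cd3e or Ncr1 and fewer than 5 UMIs of S100a9. C1q-high macrophages (1867) had 15 or more UMIs of the 3 C1q genes and at most 1 of Ly6c2 in 3000 UMIs, whereas Ly6c2 macrophages (497) had 3 or more UMIs of Ly6c2 and fewer than 15 of C1q. The other classes were CD8 T cells (199), Foxp3 T cells (41), NK cells with Ncr1 (355), dendritic cells with Flt3 (147), B cells with Cd79a (36) and neutrophils with 5 or more UMIs of S100a9 (692). The T, NK and B cell gates allowed at most 1 UMI of Csf1r and Adgre1. The NK, B and dendritic cell gates also excluded barcodes with 5 or more UMIs of S100a9, and the T cell gates did not. The neutrophil gate set no limit on Csf1r and Adgre1, and 571 of its 692 barcodes had 3 or more UMIs of them. Levels are given as UMIs per 1000000 UMIs of the class at full depth (CPM). Marker genes outside the gates matched most names: the summed level of 6 T cell genes was 4777 CPM in CD8 T cells and 20.4 in macrophages, and 6 NK cell genes reached 12047 in NK cells. The 8 macrophage markers summed to 13251 CPM in C1q-high and 10321 in Ly6c2 macrophages, with overlapping suffixes, and 5 genes of monocyte-derived cells (Ccr2, Plac8, Ifitm3, Chil3 and Vcan) stood at 2809 and 9179.7. The neutrophil gate did not hold to its name, since its barcodes carried 10282 CPM of macrophage markers beside 2760.5 of neutrophil markers, so they are called S100a9 barcodes below. The barcodes called dendritic cells carried 1086 CPM of dendritic markers (37.9 in macrophages). They also carried 1679 of macrophage markers, where macrophages carried 11757 and CD8 T cells 631. Their name stands for the Flt3 gate and is not settled by the markers. A further 1597 barcodes held T or NK cell transcripts together with 3 or more macrophage UMIs and were kept apart as mixed, and 2051 fell in no class. Only 16 barcode sequences occurred under more than 1 suffix. Total UMIs per suffix ranged from 11492757 to 33902084 and the median per barcode from 7270 to 16125.

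To compare classes of unequal depth, each barcode was thinned to 3000 UMIs (743 shallower barcodes were left out), and a barcode with 5 or more UMIs of the 40 genes was called dividing. The dividing share was highest in CD8 T cells, followed by C1q-high macrophages, and was very low in Ly6c2 macrophages. Among CD8 T cells, 99 of 190 barcodes were dividing (52.1%, 95% interval 44.8 to 59.4). Among C1q-high macrophages, 806 of 1867 were (43.2%, 40.9 to 45.5). Among Ly6c2 macrophages, 14 of 497 were (2.82%, 1.55 to 4.68). All intervals given here are exact (Clopper-Pearson for shares, Poisson for levels, and the binomial interval of the split of counts for ratios) and cover counting error only, since there is no replicate tumor that could be told apart.

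The remaining classes lay between these extremes. NK cells reached 34.3% (105 of 306, 29.0 to 39.9) and macrophages as a whole 25.6% (1041 of 4073, 24.2 to 26.9). Dendritic cells stood at 19.3% (26 of 135, 13.0 to 26.9) and the S100a9 barcodes at 20.6% (140 of 678, 17.7 to 23.9). Foxp3 T cells (7 of 23, 30.4%, 13.2 to 52.9) and B cells (1 of 19, 5.26%, 0.133 to 26.0) were too few to be placed. In descending order, the intervals of CD8 T cells and C1q-high macrophages overlapped at their edges, those of C1q-high macrophages and NK cells did not, and those of dendritic cells and S100a9 barcodes overlapped. At full depth the shares were higher, 76.4% in CD8 T cells, 87.4% in C1q-high macrophages and 32.0% in Ly6c2 macrophages, with medians of 10143, 16911 and 9453 UMIs per barcode.

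**Figure D1:**
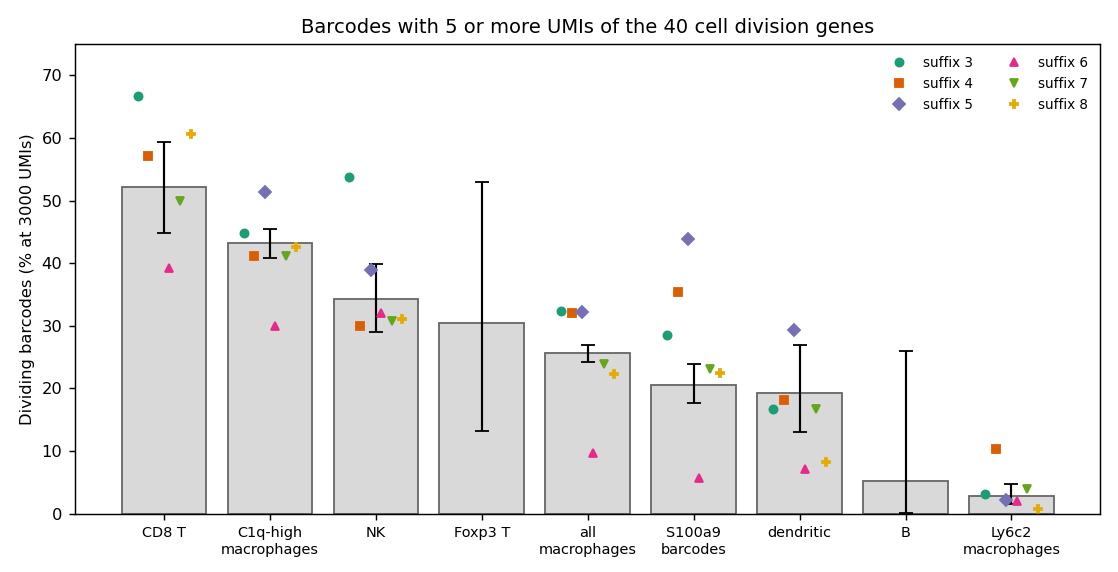
Percentage of barcodes with 5 or more UMIs of the 40 cell division genes, after thinning to 3000 UMIs, in 9 cell classes. Bars give all suffixes together with the exact 95% interval of counting error, and symbols give each suffix with 10 or more barcodes of the class. CD8 T cells (52.1%) and C1q-high macrophages (43.2%) stand at the upper end and Ly6c2 macrophages (2.82%) at the lower end, and suffix 6 lies lowest among macrophages.

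The order of CD8 T cells, C1q-high macrophages and Ly6c2 macrophages was repeated in every suffix that could be compared, and that of other classes in part. S100a9 barcodes ran from 5.68% through a median of 25.9% to 43.8%. They stood above macrophages as a whole in 3 of 6 suffixes and below NK cells in 4 of 6. C1q-high macrophages ran from 29.9% (suffix 6) through a median of 41.9% to 51.4% (suffix 5), and Ly6c2 macrophages from 0.820% (suffix 8) through 2.63% to 10.3% (suffix 4), so the values of these classes did not overlap in the 6 suffixes. CD8 T cells were above C1q-high macrophages and above NK cells in 5 of 5 suffixes with 10 or more barcodes of each class. The values of C1q-high macrophages and NK cells overlapped, with the former higher in 4 of 6 suffixes. Their order also depended on the gene list: without Ccnd1 and Stmn1, C1q-high macrophages stood at 29.9% and NK cells at 30.1%, while CD8 T cells stood at 49.5%.

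Macrophages as a whole also varied between suffixes, from 9.72% in suffix 6 to 32.3% in suffix 3. The make-up of the class varied too. C1q-high barcodes were 19.6% of the macrophages in suffix 6 and 52.2% in suffix 3, and Ly6c2 barcodes were 26.1% and 7.88%. The other suffixes did not keep one order, since suffix 5 had 44.4% C1q-high and 32.2% dividing macrophages and suffix 7 had 50% and 23.9%. C1q-high barcodes supplied 77.4% of all dividing macrophages, Ly6c2 barcodes 1.34%, and barcodes that met neither rule 19.3%. Of the barcodes that met neither rule 12.5% were dividing, as were 20 of the 100 that met both.

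No class is known here to lack division, so the share that free RNA alone would give was not measured. The S100a9 barcodes with at most 1 UMI of Csf1r and Adgre1 come closest to mature neutrophils by their gate, and 6 of 66 passed the call (9.09%, 3.41 to 18.7; median 6541 UMIs per barcode), 1 of them with 15 UMIs. The 2.82% of Ly6c2 macrophages (median 9453 UMIs) lay below that value with overlapping intervals, and is not read as division. Whether the 6 barcodes hold dividing cells, doublets or free RNA was not tested. The S100a9 barcodes with 3 or more macrophage UMIs reached 22.8% (130 of 570). Dendritic barcodes with Xcr1 or Clec9a, genes of conventional type 1 dendritic cells, were dividing in 14 of 48 (29.2%, 17.0 to 44.1). Those with Ccr7, a gene of migratory dendritic cells, were dividing in 5 of 37 (13.5%, 4.54 to 28.8), and those with Siglech, a gene of plasmacytoid dendritic cells, in 2 of 37 (5.41%, 0.661 to 18.2). The intervals of these subsets overlap that of the 6 of 66 S100a9 barcodes, for Xcr1 or Clec9a only at the edge, and the shares with Ccr7 and Siglech are not read as division. The intervals of all dendritic cells, all S100a9 barcodes, Foxp3 T cells, B cells and the macrophages that met both rules (12.7 to 29.2) overlap it too, and that of the macrophages that met neither rule (10.9 to 14.2) lies within it, so that their shares are not set apart from it. The mixed barcodes stood at 44.8%, at 59.4% where they held Cd8a or Cd8b1, at 39.1% with Ncr1 and at 38.4% with Foxp3. No doublet caller was run; the mixed barcodes were left out of every class, but a doublet within a class would stay in it.

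The spread over single barcodes showed how the classes differed. Of C1q-high macrophages, 10.0% had none of the 40 genes in 3000 UMIs, and 16.3% had 15 or more UMIs. Among CD8 T cells, 31.1% had 15 or more, and their dividing barcodes held a median of 17.0 UMIs, against 11 in dividing C1q-high macrophages and in dividing NK cells. No Ly6c2 macrophage reached 15 UMIs (0 of 497, so that a share below 0.604% could go unseen), and the highest had 14. At the threshold itself, 179 C1q-high macrophages had 4 UMIs and 118 had 5, so the call cuts through a continuous range in that class. Dividing barcodes were also deeper before thinning, with a median of 20217 UMIs against 15209 in the other C1q-high macrophages and 14415 against 7724 in CD8 T cells. The part of depth in these shares was not tested beyond the thinning.

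**Figure D2:**
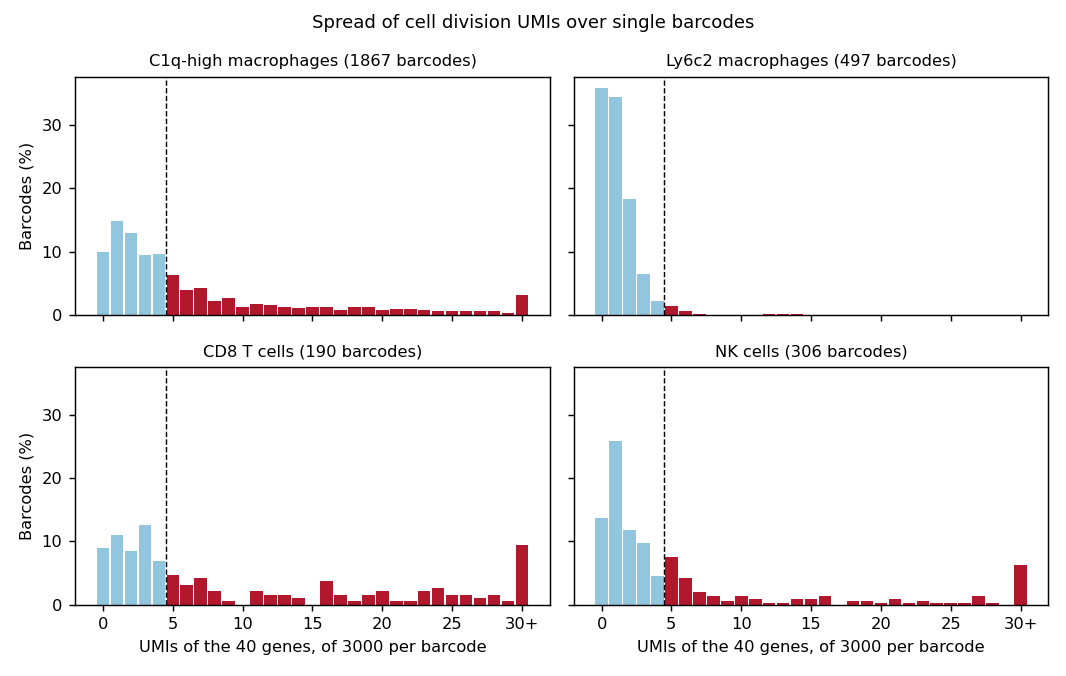
UMIs of the 40 genes per barcode (of 3000) against the percentage of barcodes, for C1q-high and Ly6c2 macrophages, CD8 T cells and NK cells. Red bars at and beyond 5 UMIs are the dividing barcodes, the dashed line marks the threshold, and the last bar holds all barcodes with 30 or more. C1q-high macrophages, CD8 T cells and NK cells have a long tail (16.3%, 31.1% and 14.7% with 15 or more UMIs) and Ly6c2 macrophages have none.

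With 3' counting, 1 transcript gives at most 1 UMI whatever its length, so CPM needs no correction for length, although genes can differ in how well they are captured, and a ranking of genes is one of captured transcripts. Between C1q-high and Ly6c2 macrophages the whole list differed. Of the 40 genes, 39 were at least 2-fold higher in C1q-high macrophages, and all 40 were higher in every one of the 6 suffixes. Over all 12383 genes with 20 or more counts, 14.0% were at least 2-fold higher and 6.53% at least 2-fold lower, and none of the 40 was lower. The median log2 ratio was 3.53 over the 40 genes and 0.14 over all genes. No test was run, since the matrix was taken as 1 pooled sample.

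The G2/M genes differed most, with a median log2 ratio of 3.72 and ratios from 3.14 (Cenpa) to 33.9 (Ccnb2). Top2a stood at 98.3 CPM in the lowest suffix, 153 at the median and 169 in the highest among C1q-high macrophages, and at 3.80, 4.90 and 17.2 among Ly6c2 macrophages. The ranges lay far apart, and the pooled ratio was 19.8 (14.6 to 27.6). Ccnb2 ran from 22.1 through 43.8 to 57.5 in C1q-high macrophages and from 0 through 0 to 3.14 in Ly6c2 macrophages, where 7 counts were found in all. Cdk1 ran from 32.9 through 67.2 to 87.8 and from 4.30 through 7.73 to 19.0, a ratio of 9.32 (6.80 to 13.1). Birc5, which encodes survivin of the chromosomal passenger complex, stood at 100.4 and 6.32 (ratio 15.9, 11.3 to 23.0), and its partners Aurkb and Cdca8 had ratios of 7.52 and 7.78.

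The spindle checkpoint and the motors of the mitotic spindle followed the same direction. Bub1 and Bub1b, kinase-domain proteins of the checkpoint, had ratios of 25.1 (9.74 to 92.3, on 4 counts in Ly6c2 macrophages) and 16.7 (8.42 to 38.7). Plk1, a mitotic kinase, was 20.1-fold higher (9.21 to 55.0) and Aurka, the kinase of the spindle poles, 7.80-fold (4.70 to 14.0). The kinesins Kif11 and Kif23 were 14.1-fold and 6.93-fold higher, and the kinetochore genes Cenpe and Cenpf 12.7-fold and 14.2-fold. Cdc20 and Ube2c, which serve the anaphase-promoting complex, were 12.7-fold and 13.2-fold higher. Of the other spindle genes, Tpx2, Prc1, Nusap1 and Hmmr had ratios of 15.3, 12.6, 22.0 and 13.8, Cdca3 had 20.2, and the cyclins Ccnb1 and Ccna2 had 7.98 and 10.9.

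Of the G2/M genes, Mki67 and Cenpa kept the highest level in Ly6c2 macrophages. Mki67 ran from 13.1 through 24.3 to 56.4 there and from 65.8 through 116 to 148 in C1q-high macrophages, a ratio of 4.37 (3.72 to 5.18). Cenpa, the histone H3 variant of centromeres, ran from 15.8 through 31.2 to 44.7 and from 41.6 through 92.8 to 107, so that its ranges overlapped at their edge. At 3000 UMIs, Mki67 was seen in 6.44% of Ly6c2 macrophages and Top2a in 1.81%, against 18.6% and 17.3% of C1q-high macrophages.

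The S genes had a lower median log2 ratio, 2.65. Pcna, the sliding clamp of replication that also serves DNA repair, was the gene short of 2-fold, with 192 to 236 in the suffixes of C1q-high macrophages (median 215) and 76.4 to 127 in those of Ly6c2 macrophages (median 113). Its ratio was 1.83 (1.69 to 1.99). The helicase subunits ranged from 2.76-fold (Mcm4) to 12.5-fold (Mcm6), with Mcm2, Mcm3, Mcm5 and Mcm7 at 6.30, 5.46, 6.32 and 7.39. The nucleotide genes Rrm1 and Rrm2, subunits of ribonucleotide reductase, were 4.5-fold and 12.3-fold higher, and Tyms (thymidylate synthase) 6.25-fold. Pclaf was 13.9-fold higher (10.3 to 19.4). The counting intervals of the ribonucleotide reductase subunits were 3.56 to 5.76 for Rrm1 and 7.84 to 20.5 for Rrm2, the latter on 19 counts in Ly6c2 macrophages. They take every UMI as independent, which UMIs of 1 barcode are not, so no difference between the subunits is read from them.

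Stmn1 stood at 155 and 9.11 (ratio 17.0, 12.8 to 23.0). Ccnd1 (cyclin D1), the most abundant of the 40 genes in C1q-high macrophages and second to Pcna in Ly6c2 macrophages, ran from 363 through 455 to 511 in C1q-high macrophages and from 65.1 through 104 to 292 in Ly6c2 macrophages. Its pooled ratio was 5.06 (4.62 to 5.55). Ccne1 and Ccne2, which drive entry into S phase, were low in both classes (14.9 and 3.16, and 7.76 and 0.744) with ratios of 4.71 and 10.4.

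**Figure D3:**
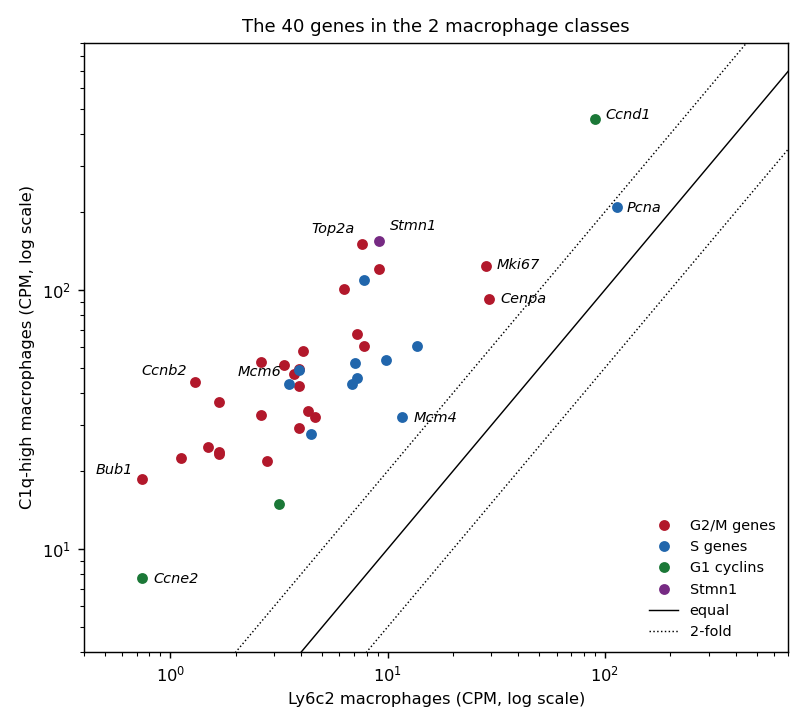
Level of each of the 40 genes (CPM, log scale on both axes) in Ly6c2 macrophages (x) and C1q-high macrophages (y), coloured by group. The solid line marks equal levels and the dotted lines a 2-fold difference; 39 genes lie above the upper dotted line and Pcna lies just below it.

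Cell cycle genes outside the list were examined in the same comparison. Of 50 further mitosis genes 46 were at least 2-fold higher in C1q-high macrophages, as were 29 of 34 replication genes and E2F targets and 9 of 11 histone genes, and none of these was lower. The highest ratios belonged to Knl1 (42.2, on 3 counts in Ly6c2 macrophages), a kinetochore scaffold, Mybl2 (33.6, on 1 count, interval 5.96 to 1332), Anln (25.8), an organizer of the cleavage furrow, and Kif2c (23.3). Of 8 other cyclins and kinases only Myc passed 2-fold (2.38). Of 18 inhibitors and quiescence genes, 3 were higher and 2 lower (16.7% and 11.1%), shares close to those of all genes, so these genes are given as single values and not as a group. The higher ones were Cdkn2c (5.39), Cdkn2a (at least 4.13-fold higher) and Cdkn2b (at least 2.88-fold higher), the last pair with 0 counts in Ly6c2 macrophages set to 3 as a bound, and they encode inhibitors of CDK4 and CDK6. The lower ones were Cdkn1a (p21; 476 and 959 CPM, ratio 0.496) and the antiproliferative gene Btg1 (882 and 1957, 0.451), each lower in 6 of 6 suffixes. Btg2 (0.542) and Trp53inp1 (0.595) were the next lowest.

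Markers of other cells differed in part between these macrophages. The 6 neutrophil markers summed to 71.7 in C1q-high and 291 in Ly6c2 macrophages, 5 of them could be measured, and 3 of those were at least 2-fold lower in C1q-high macrophages. The 6 B cell markers summed to 102 (87.1 to 127 over suffixes) and 601 (11.4 to 2375), of 5 measured 3 were higher and 1 lower, and the lower one, Ighm (83.9 and 598), was higher in C1q-high macrophages in 4 of 6 suffixes. The 9 epithelial, fibroblast and endothelial markers summed to 42.4 (31.3 to 75.3 over suffixes) and 59.7 (11.4 to 70.6), with overlapping ranges and 1 of 7 measured at least 2-fold lower in C1q-high macrophages. Dendritic and lymphocyte markers were low in both classes. The 7 dendritic markers summed to 19.5 (9.74 to 32.6) and 10.0 (2.58 to 19.7), with 3 of 7 at least 2-fold higher in C1q-high macrophages. The T cell markers summed to 19.5 and 14.1 (2 of 6 higher), the 6 markers of Foxp3 T cells to 25.6 and 13.0 (2 of 6 higher) and the NK cell markers to 91.3 and 99.3 (1 of 6 higher), and none of these was at least 2-fold lower. The part of these transcripts in the result was not tested.

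Among lymphocytes, most of the 40 genes were higher in CD8 T cells than in NK cells, few of them by 2-fold. Together they made up 4634 CPM in CD8 T cells (4549 to 4719) and 2881 in NK cells (2824 to 2938). Every one of the 40 had a ratio above 1, from 1.12 (Prc1) to 2.18 (Pclaf), 22 were higher in all 5 suffixes that could be compared, and 6 were at least 2-fold higher. The intervals of 5 ratios reached below 1, those of Prc1, Cenpf, Aurka, Hmmr and Ccne1, and Prc1, Cenpf and Ccne1 were higher in 2 of 5 suffixes. Of all 9928 genes measured, 6.15% were at least 2-fold higher and 5.49% lower. The median log2 ratio was 0.70 for the 40 genes and 0.09 for all genes.

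The 6 genes were Pclaf, Tyms and Rrm1 of S phase, Ccna2 and Bub1 of G2/M, and Ccne2. Pclaf stood at 269.9 to 535 in the suffixes of CD8 T cells (median 411) and at 128 to 231 in those of NK cells (median 156), with no overlap and a ratio of 2.18 (1.97 to 2.42). Rrm1 ran from 105 to 164 (median 145) and from 52.2 to 86.1 (median 63.5), again without overlap, and its ratio was 2.01 (1.69 to 2.40). Tyms stood at 61.5 to 124 and 27.3 to 58.7 (ratio 2.07). Ccna2, the cyclin of S phase and G2, stood at 64.8 to 126 and 6.83 to 70.6 (ratio 2.02). The ranges of Ccna2 overlapped at their edge, and those of Mki67 and Top2a overlapped as well (241 to 390.1 against 46.9 to 289 for Mki67, ratio 1.81, and 299 to 513 against 153 to 375 for Top2a, ratio 1.63).

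The count of 6 rested on a threshold close to the bulk of the ratios: 27 genes passed 1.5-fold, 15 passed 2-fold when every barcode had equal weight, and 2 passed when suffix 4 was left out. Of the further genes, 10 of 50 mitosis genes, 5 of 34 replication genes and 4 of 10 histone genes were at least 2-fold higher in CD8 T cells and none was lower. Of 8 other cyclins and kinases, Cdk2 (2.76) and Cdk6 (2.20) were higher. Of 16 inhibitors 1 was higher and 1 lower, near the shares of all genes: Cdkn2a was 7.35-fold higher (on 48 and 9 counts) and Klf2, a factor of resting T cells, was lower (79.9 and 199, ratio 0.401). Mybl2 (5.02) and Ttk (2.76) led the mitosis genes, while Btg2 (0.524), Klf4 (0.580) and Cdkn1a (0.585) were lower without passing 2-fold. Of other cells' markers, the 8 macrophage markers summed to 631 CPM in CD8 T cells and 748 in NK cells. The neutrophil markers summed to 103 and 28.0 (3 of 3 measured at least 2-fold higher). Only the NK cell gate excluded barcodes rich in S100a9, so that this difference is not independent of the gates. The 9 epithelial, fibroblast and endothelial markers summed to 55.0 and 150.1 (1 of 5 measured higher and 2 lower). The dendritic markers summed to 179 (146 to 246 over suffixes) and 45.2 (10.3 to 57.1), without overlap, and 2 of 4 measured were at least 2-fold higher. The 5 genes of monocyte-derived cells summed to 1402 and 2204 (2 higher and 1 lower). Their part in the result was not tested.

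Foxp3 T cells were compared with the same CD8 T cells, on 41 barcodes. The 40 genes summed to a pooled 3813 CPM (3576 to 4061), between the pooled values of CD8 T cells and NK cells. In suffixes 4 and 6 they stood at 4516 and 4364, against 5679.8 and 4453 in CD8 T cells and 2615 and 3845 in NK cells. With so few barcodes the class is not ranked by these values. None was at least 2-fold higher and 3 were at least 2-fold lower, against 13.8% and 10.7% of all 8496 genes measured. The 3 were Mcm7 (55.3 and 125, ratio 0.443, 0.239 to 0.754), Ccnd1 (on 4 counts) and Ccne2 (on 2 counts), and for the last pair the intervals of the ratio reached above 1. Top2a stood at 383 and 388 CPM (ratio 0.987, 0.793 to 1.22) and Mki67 at 296 and 307 (0.965, 0.751 to 1.22). The suffixes behind the Mki67 values went opposite ways, with 462 in Foxp3 and 390.1 in CD8 T cells in suffix 4 and 159.5 and 374 in suffix 6, so that no likeness is read from the pooled ratio. The median log2 ratio was -0.22 over the G2/M genes and -0.75 over the S genes. Histone genes were at least 2-fold lower in 7 of 10, Hist1h1b most (82.9 and 377, ratio 0.220), and so were 14 of 33 replication genes (1 was higher) and 8 of 50 mitosis genes. Ska1 (0.167) and Ung (0.246) were also among the 4 lowest ratios of the further lists, each on 1 count in Foxp3 T cells. Of 8 other cyclins and kinases, Myc (3.93) and Ccnd2 (2.71) were higher and Cdk7 (0.492) lower. Of 16 inhibitors and quiescence genes 5 were higher, namely Trp53inp1 (7.61), Tob1 (3.89), Cdkn1a (3.52), Klf2 (3.51) and Cdkn1b (2.56), and Cdkn2a was lower (0.205, on 1 count). Markers of other cells also differed: the 7 dendritic markers summed to 529 CPM in Foxp3 T cells and 179 in CD8 T cells (2 of 4 measured at least 2-fold higher), the 8 macrophage markers to 1105 and 631 (2 of 8 higher), the 6 B cell markers to 138 and 40.6 (1 of 1 measured higher) and the neutrophil markers to 94.7 and 103 (2 of 3 measured lower). The 6 NK cell markers summed to 1326 (365 to 3975 over suffixes) and 1594 (1365 to 2087), with 4 of 5 measured at least 2-fold lower and 1 higher, and the 5 genes of monocyte-derived cells to 2092 and 1402 (2 higher and 1 lower). The epithelial, fibroblast and endothelial markers summed to 98.7 and 55.0 (1 of 2 measured higher). Their part in the result was not tested. Only 2 suffixes held 10 or more Foxp3 T cells, so that differences between suffixes could not be read.

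The other classes held the genes at lower levels than the T and NK cells and C1q-high macrophages. Ly6c2 macrophages had 438 CPM of the 40 genes. Dendritic cells had 1431 CPM of the 40 genes (1373 to 1492), with Top2a at 99.2 and Mki67 at 65.9. The S100a9 barcodes had 1544 (1523 to 1566), with Top2a at 79.5, Mki67 at 72.4 and Ccnd1 at 249, where macrophages as a whole had 111, 95.5 and 331. B cells had 441 (343 to 558), with 15 of the 40 genes at 0 counts; 3 counts in that class correspond to 19.2 CPM, so single genes could not be placed.

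The dividing barcodes were then set against the other barcodes of their class. The 40 genes themselves chose these barcodes and their difference is no result, but the further cell cycle genes had no part in the choice. In C1q-high macrophages, 48 of 50 mitosis genes, 33 of 34 replication genes and 11 of 11 histone genes were at least 2-fold higher in dividing barcodes, against 5.08% of all 12158 genes, and none was lower, against 1.92%. In macrophages as a whole the counts were also 48 of 50, 33 of 34 and 11 of 11, where 6.08% of all 13066 genes were higher and 4.47% lower. In CD8 T cells they were 48 of 48, 30 of 33 and 10 of 10, where 8.21% of all 8111 genes were higher and 5.77% lower. Some markers of other cells differed: the neutrophil markers summed to 20.5 CPM (3.07 to 31.3 over suffixes) and 261 in the other CD8 T cells (23.9 to 812), with 3 of 3 measured at least 2-fold lower. The 8 macrophage markers summed to 517 and 839 (4 of 8 lower), the 5 genes of monocyte-derived cells to 1372 and 1458 (3 of 5 lower), and the 6 T cell markers to 4557 and 5173 (none past 2-fold). The dendritic markers (162 and 209), B cell markers (25.4 and 67.8) and epithelial, fibroblast and endothelial markers (55.8 and 47.9) had no measured gene past 2-fold. Their part in the result was not tested. The further genes belong to the same programme in the same cells, so these counts describe the call and are no independent evidence of division.

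Among C1q-high macrophages the highest ratios belonged to Ttk (43.7), a checkpoint kinase, Hist1h1b (39.9; 128 and 3.21 CPM), Pimreg (31.9) and Knl1 (29.9), each higher in 6 of 6 suffixes. The lowest ratios belonged to Klf4 (0.638), Btg2 (0.638), Tob1 (0.712) and Btg1 (0.713), and none of them passed 2-fold. Of the 18 inhibitors 4 were higher in dividing C1q-high macrophages, Cdkn2c (4.83), Cdkn2a (4.07), Rbl1 (3.70) and Cdkn2d (2.81), and none was lower. In CD8 T cells none of 16 was higher and 4 were lower, Trp53inp1 (0.152), Klf2 (0.284), Klf4 (0.456) and Tob1 (0.482), although Tob1 was higher in dividing barcodes in 3 of the 4 suffixes with enough barcodes. Of the other cyclins and kinases, only Cdk2 passed 2-fold in C1q-high macrophages (2.34) and only Cdk4 in CD8 T cells (2.38). Here and in the other comparisons, genes of these lists outside the 4 highest and 4 lowest ratios were named after their values were seen. In CD8 T cells the highest ratios were those of Hist1h2ap (92.6, on 2 counts in the other barcodes), Aspm (41.9, on 1 count), Spc24 (31.5, on 3 counts) and Mybl2 (26.0, on 1 count).

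None of the 8 macrophage markers, which had no part in the gates, passed 2-fold in either direction between dividing and other C1q-high macrophages. They summed to 11559 and 14888 CPM, and Apoe, an apolipoprotein, was lower in dividing barcodes (1839 and 3184, ratio 0.578) in 6 of 6 suffixes. The 9 epithelial, fibroblast and endothelial markers summed to 35.8 and 48.7, the 6 T cell markers to 17.9 and 21.1, and the 6 neutrophil markers to 55.8 and 87.0 (2 of 5 measured at least 2-fold lower).

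Outside all lists, the genes with the highest ratios of dividing to other macrophages, beside Igkc, were Selenoh (3.48), Tmpo (3.23, a protein of the nuclear lamina), Tubb5 (3.19, a beta-tubulin; 1308 and 409 CPM), Lsm2 (3.03) and Dtymk (2.92, thymidylate kinase), each higher in 6 of 6 suffixes. Igkc, an immunoglobulin light chain, had a ratio of 10.9, but 3366 of its 3476 counts lay in 1 barcode of suffix 7; without that barcode it stood at 5.12 in dividing and 14.8 in other macrophages. The 6 B cell markers summed to 239 in dividing macrophages (91.6 to 912 over suffixes) and 78.1 in the others (63.2 to 97.0), with 1 of 5 measured at least 2-fold higher. The neutrophil markers summed to 63.3 and 169.7 (4 of 5 measured lower) and the 5 genes of monocyte-derived cells to 2829.9 and 4633 (3 of 5 lower), and the 7 dendritic markers to 30.1 and 42.1 (1 higher and 2 lower). The part of these markers in the ratios was not tested. The genes with the lowest ratios were Gm15056 (0.10), the acute phase gene Saa3 (0.113), the coagulation factor gene F10 (0.124), Ly6c2 itself (0.170), the protease inhibitor gene Slpi (0.176) and Inhba (0.205), the activin A subunit, each lower in 6 of 6 suffixes. Ly6c2 is the gate gene of the class with few dividing barcodes, so its place here is not independent of the gates. The make-up of the class also differed, since C1q-high barcodes were 806 of the 1041 dividing macrophages and 1061 of the 3032 others. Its part in each ratio was not tested. Within C1q-high macrophages alone, an alternative chosen after seeing the data, Gm15056, Saa3 and F10 had ratios of 0.276, 0.261 and 0.367. Each was lower in 6 of 6 suffixes. Ly6c2 (0.582, lower in 6 of 6 suffixes), Inhba (0.686, lower in 5 of 6) and Slpi (0.756, lower in 4 of 6) were short of 2-fold. The 5 genes of monocyte-derived cells summed to 2650.5 and 2963 there, with none past 2-fold. Selenoh, Tmpo, Tubb5, Lsm2 and Dtymk kept ratios from 2.47 to 3.94 within that class, and Igkc stood at 4.57 and 18.3 CPM.

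Among the barcodes called dividing, the levels of the 40 genes differed between classes, and those of cyclin D1 most. Ccnd1 ran from 461 through 594 to 641 CPM over the suffixes of dividing C1q-high macrophages, from 9.66 through 50 to 88.9 in dividing CD8 T cells and from 3.68 through 12.3 to 47.3 in dividing NK cells. The lowest macrophage value lay far above the highest of both lymphocyte classes. Each lymphocyte class had 5 suffixes with 10 or more dividing barcodes. Ccnd1 made up 15.9% of the thinned UMIs of the list in dividing C1q-high macrophages, 0.831% in dividing CD8 T cells and 1.33% in dividing NK cells. Ccnd1 is part of the call and raises its own share, so the call was repeated without Ccnd1 and Stmn1, an alternative chosen after seeing the data. This left 558 of 806 dividing C1q-high macrophages, 94 of 99 CD8 T cells and 92 of 105 NK cells, in which Ccnd1 made up 10.1%, 0.789% and 0.424%. Its level was then 524 CPM in dividing C1q-high macrophages (409.5 to 580.3 over suffixes), 45.5 in CD8 T cells (10.6 to 96.6) and 12.4 in NK cells (4 to 48.6), again without overlap between macrophages and lymphocytes. It was not confined to dividing barcodes, since the other C1q-high macrophages held 321 CPM. The other D cyclins had the opposite direction with the call on all 40 genes. Ccnd2 was 2.54-fold and Ccnd3 2.04-fold higher in dividing CD8 T cells than in dividing C1q-high macrophages, with Cdk6, their kinase partner, at 2.94-fold. These ratios were not repeated with the call that leaves out Ccnd1 and Stmn1.

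In that comparison, added after the first values were seen, 9 of the 40 genes were at least 2-fold higher in dividing CD8 T cells and 2 at least 2-fold lower, against 15% and 21.7% of all 11541 genes measured. These are 22.5% and 5% of the 40. The barcodes were chosen by the sum of the 40 genes, so only the proportions among them are described. With the call that leaves out Ccnd1 and Stmn1, 4 genes were higher (Pclaf, Kif11, Tyms and Mcm4, from 2.01 to 2.25) and the same 2 were lower. With the call on all 40 genes, 5 of the 11 S genes were higher, namely Pclaf (2.76), Rrm2 (2.48), Tyms (2.43), Mcm4 (2.21) and Mcm3 (2.18). Of the 25 G2/M genes 4 were higher, about the share of all genes: Kif11 (2.55), Nusap1 (2.37), Cenpa (2.34) and Mki67 (2.05). The 2 lower genes were Ccnd1 (0.0784, 0.0616 to 0.0984) and Aurka (0.478, 0.322 to 0.685).

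Aurka ran from 29.2 through 37.1 to 48.5 over the suffixes of dividing C1q-high macrophages and from 6.44 through 18.7 to 29.6 in dividing CD8 T cells, where 31 counts were found in all. The ranges met only at their edge. Plk1 (44.1 and 31.6, ratio 0.717, 0.529 to 0.953) pointed the same way, while Ccnb1 (66.9 and 53.9, 0.806), Cdca3 (99.1 and 84.3, 0.851) and Cdc20 (63.1 and 57.0, 0.904) had intervals that reached 1 or above. Histone genes differed as a group with the call that includes Ccnd1 and Stmn1. Of them, 10 of 11 were at least 2-fold higher in dividing CD8 T cells, with a median log2 ratio of 1.67. The histone genes and the other further lists below were not recounted with the call that leaves out Ccnd1 and Stmn1. The part of the call in these counts was not tested. Of 34 replication genes 13 were higher, and of 50 mitosis genes 9 were higher (18%) and 1, Anln, lower. Of 18 inhibitors 3 were higher (Rbl2, Cdkn2a and Cdkn1b) and 3 lower (Cdkn1a, Klf2 and Klf4), 16.7% each. The counts higher among mitosis genes and inhibitors are near the 15% of all genes, and that of the replication genes is 38.2%. Replication-dependent histone transcripts mostly lack a poly(A) tail, so a poly(A)-primed assay captures a small part of them. Dut, which makes dUMP, stood at 611 and 102 (ratio 5.96), Cenpk at 37.2 and 8.07 (4.61) and Rbl2, a pocket protein of the DREAM complex, at 105 and 13.1 (7.99), with Cdkn2a at 5.64-fold and Cdkn1b at 2.47-fold. Cdkn1a stood at 98.5 and 445 (0.221), Klf2 at 42.1 and 361 (0.117), Klf4 at 22.9 and 134 (0.172) and Anln at 9.92 and 45.3 (0.219). Markers of other cells differed too: in dividing CD8 T cells and dividing C1q-high macrophages the dendritic markers summed to 162 and 19.7 (3 of 6 measured higher and 1 lower), the neutrophil markers to 20.5 and 55.8 (3 of 4 lower), the B cell markers to 25.4 and 106 (3 of 4 lower), the NK cell markers to 1510.5 and 96.7 (5 of 5 higher), the genes of monocyte-derived cells to 1372 and 2650.5 (1 of 5 higher and 3 lower) and the epithelial, fibroblast and endothelial markers to 55.8 and 35.8 (2 of 6 higher). Their part in the result was not tested.

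**Figure D4:**
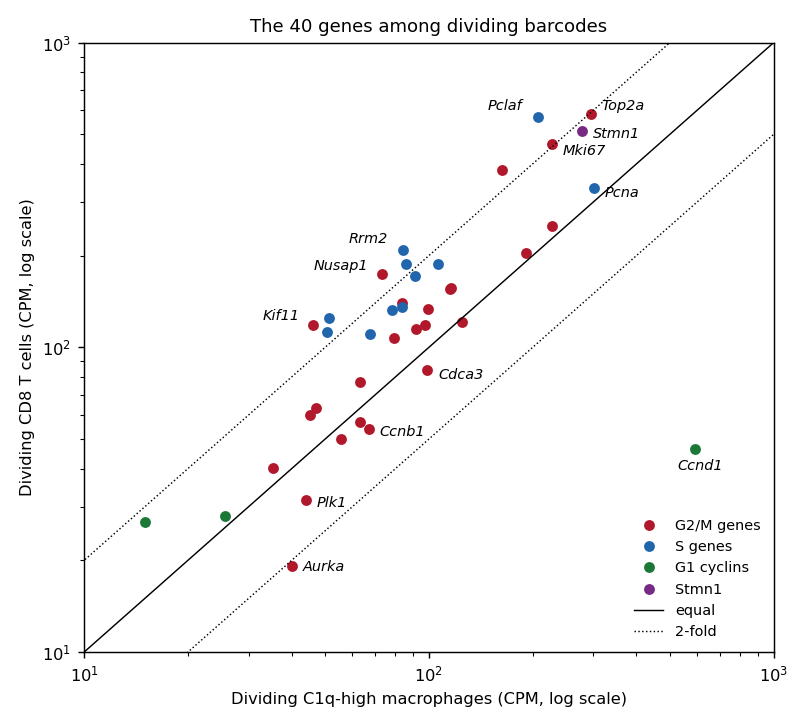
Level of each of the 40 genes (CPM, log scale on both axes) in dividing C1q-high macrophages (x) and dividing CD8 T cells (y), coloured by group. The solid line marks equal levels and the dotted lines a 2-fold difference; Ccnd1 (593 and 46.5) lies far below the lower line, and Aurka (40.2 and 19.2) just below it.

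The balance of S and G2/M genes in dividing barcodes lay between 31.5% and 39.7% S genes over the classes. S genes supplied 34.9% of the S and G2/M UMIs in dividing macrophages (3862 S and 7189 G2/M UMIs, 34.1 to 35.8), 35.0% in C1q-high macrophages (34.0 to 36.0), 37.5% in CD8 T cells (35.3 to 39.9) and 39.7% in NK cells (37.2 to 42.2). Dendritic cells stood at 31.5% (25.9 to 37.6). UMIs of 1 barcode are not independent, and the values over suffixes were far wider than these intervals: 30.7% to 40% in macrophages, 29.7% to 46.9% in CD8 T cells and 27.2% to 56.5% in NK cells. The ranges of the classes overlapped, and no order between them is read. In macrophages, CD8 T cells and NK cells alike, suffix 4 had the lowest value (30.7%, 29.7% and 27.2%).

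Most dividing barcodes held genes of both groups, 76.3% of macrophages, 92.9% of CD8 T cells and 82.9% of NK cells. S genes without G2/M genes were seen in 12.2%, 3.03% and 11.4%, and G2/M genes without S genes in 9.22%, 4.04% and 4.76%. With few UMIs per barcode a missing group is often a matter of sampling, so these shares are no count of cells in a phase.

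**Figure D5:**
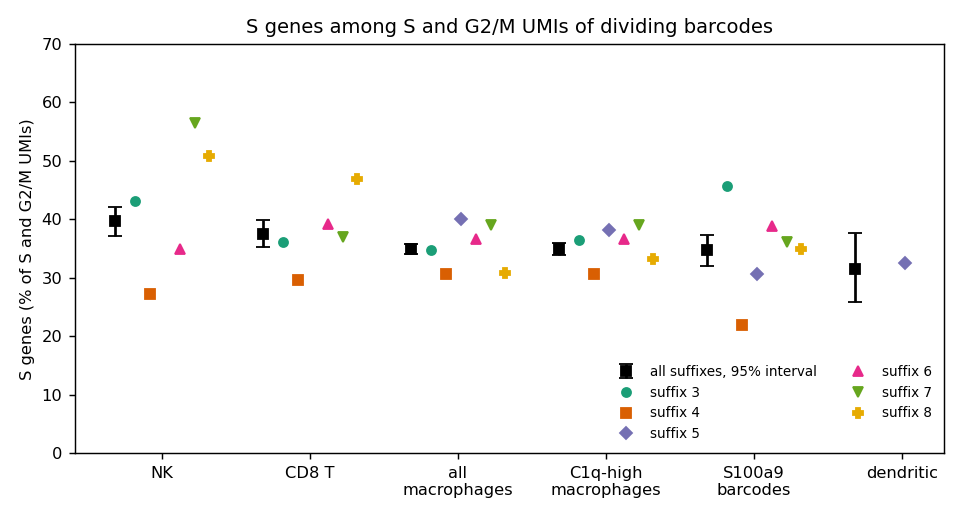
Percentage of S genes among the S and G2/M UMIs of dividing barcodes, in 6 classes. Black squares give all suffixes with the exact 95% interval of counting error and coloured symbols give each suffix with 10 or more dividing barcodes; the suffixes of NK cells spread from 27.2% to 56.5%, wider than the differences between classes.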

How the data were processed

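The deposited file is a matrix of raw UMI counts, and the authors made it from 10x 3' v3.1 libraries. Per the labels, the submitters' processing notes name Cell Ranger 1.2, Seurat 3.1.5, R 4.0.1 and mm10, without stating each step. No barcode exceeded 9.99% mitochondrial UMIs. The barcodes carry no tumor label and their suffixes match none, so the 6 tumors entered as 1 sample, the planned treatment comparison was not run, and no test between groups or classes was run.

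Barcodes were gated on single genes and thinned without replacement to 3000 UMIs (numpy 2.4.6, scipy 1.17.1, pandas 2.3.3). The thinning and ratios were tested on simulated data. Ratios of summed counts used genes with 20 or more counts over both classes, and a class at 0 counts was set to 3 counts as a bound. Per-suffix values needed 10 barcodes. The precision rests on a median of 11846 UMIs per barcode. Intervals cover counting error at the 95% level.

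The comparison of dividing CD8 T cells with dividing C1q-high macrophages was added after the first values were seen. All 40 genes, the 4 highest and 4 lowest ratios of the further cell cycle lists, and the 6 highest and 6 lowest outside all lists (100 or more CPM, UMIs per 1000000) were named. The members and lists were chosen with earlier results of these data known. Alternatives were the depth (2000, 5000), the threshold (8), shorter gene lists, gates at 3000 UMIs, another seed, a 1.5-fold threshold, a minimum of 5 counts, equal weight of barcodes, a dividing call without Ccnd1 and Stmn1 and C1q-high macrophages alone (both chosen after seeing the data), and leaving out each suffix.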

Additional observations from a re-analysis of the deposited data

Results flagged for a closer look

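Of the 7 cell classes whose dividing share could be examined over 6 suffixes, 2 had 1 suffix far from the others by a gap test that chance alone passes in about 1 of 20 groups. Among Ly6c2 macrophages, suffix 4 stood at 10.3% (3 of 29 barcodes, 2.19 to 27.4) and the other suffixes between 0.820% and 4%. Among NK cells, suffix 3 stood at 53.8% (21 of 39 barcodes, 37.2 to 69.9) and the others between 30% and 38.9%; without suffix 3 the NK cell share was 31.5%.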

How the results depend on the processing

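The shares depend on the depth and the threshold, and so does part of their order. At 2000 and 5000 UMIs the dividing share was 18.6% and 38.1% in macrophages, 31.9% and 59.3% in C1q-high macrophages, 1.21% and 5.71% in Ly6c2 macrophages, 40.2% and 70.4% in CD8 T cells, 20.9% and 50.6% in NK cells, and 14.2% and 30.8% in S100a9 barcodes. At 5000 UMIs it was 28.0% in dendritic cells and 55.6% in Foxp3 T cells. With a threshold of 8 UMIs it was 16.8% in macrophages, 28.5% in C1q-high, 0.604% in Ly6c2 macrophages, 11.9% in dendritic cells, 40% in CD8 T cells, 20.6% in NK cells, 0 in B cells and 12.2% in S100a9 barcodes. The 25 G2/M genes with 3 UMIs gave 14.8% in macrophages, 24.4% in C1q-high macrophages, 12.6% in dendritic cells, 23.5% in NK cells and 11.5% in S100a9 barcodes. Without Ccnd1 and Stmn1 the shares were 17.6% in macrophages, 29.9% in C1q-high macrophages and 13.4% in S100a9 barcodes. Gates on thinned counts gave 28.4% in macrophages. Another seed of the thinning gave 29.1% in NK cells and 2.01% in Ly6c2 macrophages. Dendritic cells, below S100a9 barcodes in the reported setting, stood above them without Ccnd1 and Stmn1 (14.1%), with the G2/M genes, with thinned gates (22.1% and 19.1%), with another seed (19.3% and 19.2%) and without suffix 8 (21.6% and 19.8%), so their order is not read. In every one of these settings CD8 T cells stood above C1q-high macrophages and these above Ly6c2 macrophages.

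The S gene share of dividing macrophages was 31.6% at 2000 UMIs, 32.4% with a threshold of 8, 37.7% with gates on thinned counts and 33.7% with another seed. That of CD8 T cells was 39.9% and 41.5% at 2000 and 5000 UMIs, 31.1% with thinned gates and 40.2% with another seed. A ratio of 1.5 and equal weight of barcodes gave 27 and 15 genes higher in CD8 T than in NK cells, and 1 and 1 higher in Foxp3 than in CD8 T cells. The dividing call without Ccnd1 and Stmn1, added after seeing the data, gave a Ccnd1 share of 10.1% in C1q-high macrophages and 0.424% in NK cells, and 4 instead of 9 genes higher in dividing CD8 T cells than in dividing C1q-high macrophages. The cause of the other shifts was not tested.

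Leaving out each suffix in turn moved the dividing share between 24.0% and 28.0% in macrophages, 41.3% and 44.0% in C1q-high, 2.35% and 3.47% in Ly6c2 macrophages, 13.1% and 21.6% in dendritic cells, 50.6% and 54.3% in CD8 T cells, 23.5% and 35.0% in Foxp3 T cells, 31.5% and 35.8% in NK cells, 0 and 7.69% in B cells, and 19.5% and 25.9% in S100a9 barcodes. The S gene share moved between 33.3% and 36.3% in macrophages and 35.6% and 39.2% in CD8 T cells. The count of 39 genes higher in C1q-high macrophages did not move, and that of 6 higher in CD8 T cells moved between 2 (without suffix 4) and 9 (without suffix 6). For the treatments, no paired analysis was possible because the tumors' replicate numbers could not be tied to barcodes; classes were set side by side within suffixes as a description and were not tested against each other.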
